A study of Homo sapiens with 12 samples.

Results

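Respiratory complex I, NADH:ubiquinone oxidoreductase, is the entry point for electrons from NADH into the mitochondrial respiratory chain. Its peripheral arm reaches into the matrix, where the N module oxidises NADH and the Q module passes the electrons through iron-sulfur clusters to ubiquinone, and its membrane arm pumps protons across the inner membrane. Mitochondrial DNA encodes the central subunits of the membrane arm, whereas the remaining core subunits and all accessory subunits are encoded in the nucleus. The nuclear subunit genes examined here were those listed as protein coding with a symbol made of NDUF, a letter group A, AB, B, C, S or V, and a number. The rule found 38 of the 58735 genes of the table. In the order used below they comprised 3 core genes of the N module, 4 core genes of the Q module, 9 accessory genes of the peripheral arm, NDUFAB1, which sits in both arms, 9 accessory genes of the proximal membrane arm and 11 of the distal membrane arm. The remaining gene, NDUFA4, carries a complex I symbol by history and is now known as a subunit of cytochrome c oxidase. It was kept as a structural group of its own, but the counts over all subunit genes below include it.

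Poly(A) RNA was sequenced from TIGK cells, a human gingival keratinocyte line immortalized with hTERT. All cells were kept in 48 mM glucose, in a SILAC-type DMEM with L-lysine, L-glutamine, hydrocortisone, TGF-α, pituitary extract, epinephrine, apo-transferrin and insulin. The 4 groups were the untreated control without L-Arginine (Arg) at 24 h and at 48 h and cells given 500 µM Arg for 24 h or 48 h, with 3 libraries (A, B and C) in each. By the study's methods the cells grew in 6-well plates, and whether the libraries of a group came from separate flasks or days is not given in the sources used here, so p-values measure only the spread between these libraries.

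The 12 libraries held between 16542243 and 19040964 counts assigned to genes, of which 49058 to 62332 fell in the 38 nuclear subunit genes. All 9 keratinocyte markers examined (among them KRT5, KRT14 and TP63) were detected, with summed levels of 39181 to 51955 CPM (counts per 1e6 counts of the library, scaled by the TMM method throughout), against at most 102.5 CPM for 6 fibroblast markers, 3.06 CPM for 4 melanocyte markers, 2.13 CPM for 3 endothelial markers and 0.45 CPM for 4 leukocyte markers. Of the melanocyte and the leukocyte markers, 1 each was at 0 in every library. Control library B at 48 h stood apart, with 1.55% of its counts in mitochondrially encoded genes against 0.906% and 0.707% in the other control libraries at 48 h.

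Several subunit genes shared bases with neighbouring genes of the annotation. Of the 38 genes, 7 were spanned over more than 50% of their range by another gene on the same strand: NDUFV2, NDUFA13, NDUFA7, NDUFB8, NDUFA11, NDUFC2 and NDUFA9. Against the GENCODE v44 canonical transcripts, 90.0% of the bases of NDUFV2 were also exonic in the gene that spanned it. The corresponding shares were 83.9% for NDUFA13, 77.9% for NDUFA7, 72.0% for NDUFB8, 68.2% for NDUFA11, 19.7% for NDUFC2 and 11.7% for NDUFA9. The spanning genes themselves held between 0 and 91 counts over all 12 libraries. Apart from the gene that spanned NDUFV2, they are annotated as readthrough genes, in which the transcript of a subunit gene runs on into its neighbour.

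The 5 subunit genes with the fewest counts were the 5 with the largest shared portions. NDUFA7 had 45 counts in all 12 libraries together, NDUFV2 209, NDUFA13 369, NDUFA11 1128 and NDUFB8 2141. The next lowest was NDUFS7 with 3237 counts, 51.3% of whose canonical transcript was exonic in antisense genes, and the highest was NDUFB9 with 49598. Opposite-strand genes also shared 27.4% of NDUFA2, 24.3% of NDUFB2, 23.9% of NDUFB9, 15.9% of NDUFA3 and 12.1% of NDUFS1, and since the strand setting of the counting is not given, their values are uncertain too. NDUFV2, a core iron-sulfur subunit of the N module, was listed at a mean of 0.956 CPM, while its partners NDUFV1 and NDUFS1 stood at 222 and 148 CPM. A processed pseudogene of NDUFV2, NDUFV2P1, held 976 counts. Whether reads that fell on bases shared by 2 genes were left uncounted is not given in the sources used here and was not tested. The values of these 7 genes are given as uncertain.

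**Figure D1:**
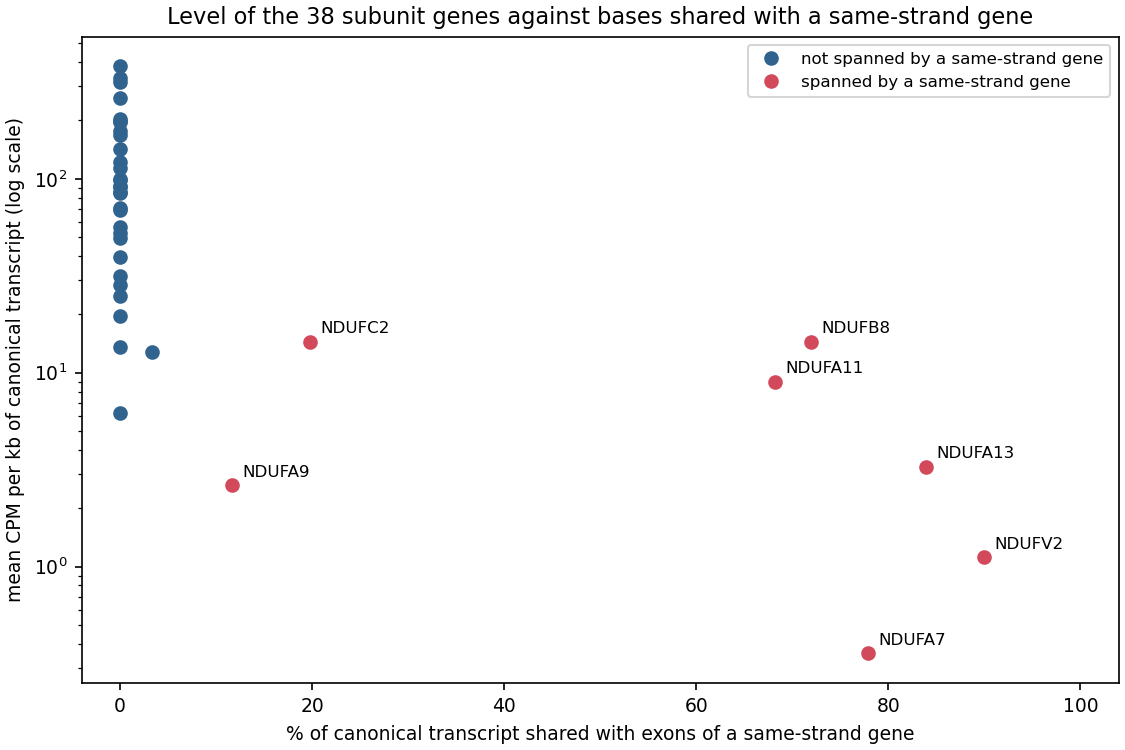
Mean level of each of the 38 subunit genes over the 12 libraries, in CPM per kilobase of canonical transcript (log axis), against the percentage of that transcript also exonic in a gene on the same strand. Each point is a gene; the 7 genes spanned by a same-strand gene are named, and those sharing 68.2% to 90.0% lie between 0.357 (NDUFA7) and 14.5 (NDUFB8) CPM per kilobase.

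Levels were compared between genes per kilobase of the exonic length of the table. NDUFS5, an accessory subunit of the proximal membrane arm, was the most abundant at 344 CPM per kilobase, followed by NDUFB7 of the distal membrane arm at 265 and NDUFS6, an accessory subunit of the peripheral arm, at 113. The lowest were NDUFA13 at 0.630, NDUFV2 at 0.353 and NDUFA7 at 0.146, all 3 of them spanned by a same-strand gene. With the length of the canonical transcript, NDUFS5 still led, followed by NDUFB9, NDUFS6 and NDUFB7 in that order. Replicates were close for most genes: the median coefficient of variation within a group was between 5.31% (Arg at 48 h) and 8.07% (Arg at 24 h) over the 37 genes other than NDUFA7.

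Nuclear respiratory factor 1 (NRF1) is a known activator of genes of the respiratory chain, so the core of its site, GCGCATGC, was searched on both strands in the 250 bases before the RefSeq start (GRCh38.p14) of the 32 subunit genes with an entry. It was present in 5 of 32 (15.6%), against 5.71% of 10008 expressed protein-coding genes and 3.22% of all 27305 promoters. The 30 bases around each match are shown 5′ to 3′ on the strand of the gene, with the core or its reverse complement in capitals, because these are the subunit promoters that carry it; before NDUFB4 both forms occur and overlap, and the first is marked.
NDUFA5 (chr7:123557958-123557987, minus strand): gtatgcccatcGCGCATGCgtcaatttttc
NDUFA6 (chr22:42090920-42090949, minus strand): tctgtagatgaGCATGCGCagcacccaccg
NDUFB4 (chr3:120596166-120596195, plus strand): aagagcacttcGCGCATGCgcatatcaccg
NDUFS6 (chr5:1801350-1801379, plus strand): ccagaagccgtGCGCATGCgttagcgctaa
NDUFS7 (chr19:1383823-1383852, plus strand): ttccggtttccGCATGCGCtccgagccgct
The core of an ETS site, CCGGAAGT, was found before 2 of the 32 (6.25%, NDUFS1 and NDUFA13), against 8.33% of the expressed genes and 4.13% of all promoters. The YY1 core AAGATGGC was found before 0 of 32, against 2.40% and 1.64%. None of the 5 genes with the NRF1 core passed the main edgeR test with Arg at either time, as given below. Without control library B at 48 h, NDUFS6 was downregulated with Arg, beside 1213 of the 14854 genes then tested. A match of letters does not show binding.

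The first comparison asked which subunit genes differed between Arg-treated and untreated cells at 24 h. With Arg, 3 subunit genes were downregulated and 0 were upregulated among the 37 tested (adjusted p under 0.05, edgeR; NDUFA7 was too low to test). NDUFB10 and NDUFB8, accessory subunits of the distal membrane arm, fell to 0.789 and 0.590 of the control level, and NDUFA4 fell to 0.813. NDUFA4 is the cytochrome c oxidase subunit, and NDUFB8 is spanned by a same-strand gene. Of the 31 genes tested that are not so spanned, 2 were downregulated, NDUFB10 and NDUFA4 (9 lower and 1 higher at an unadjusted p under 0.05). The downregulated share was 8.11% of the 37, beside 3.84% of all 14279 genes tested, and 2.79% of all genes were upregulated. At an unadjusted p under 0.05 the counts were 12 lower and 1 higher, beside 11.9% and 10.8% of all genes. The log2 fold change lay below 0 in 26 of 37 subunit genes (49.5% of all genes), with a median of -0.08 against 0.00 over all genes. Without Arg library B or C the count of downregulated subunit genes was 0, without control B 5 and without Arg library A 6. It was 1 without control A (NDUFB1) and 1 without control C (NDUFB10). The lower calls over all genes moved too, from 549 to 253 and 245 without Arg library B or C. They were 882 without control B, 639 without Arg library A, and 233 and 286 without control A or C. In bulk libraries, fewer cells that express a gene and less RNA of it per cell cannot be told apart.

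At 48 h, 2 of 37 subunit genes were downregulated, NDUFC2 of the proximal membrane arm, to 0.574 of the control level, and NDUFB8, to 0.511. This was 5.41% of the genes, beside 0.117% of the 14562 genes tested, of which only 17 were downregulated and 0 upregulated (edgeR). At an unadjusted p under 0.05, 1090 of all genes were lower and 865 higher. With DESeq2 5 subunit genes were lower and 0 higher, beside 128 lower and 39 higher of the 11928 genes it tested. The 5 were NDUFA9, NDUFA11, NDUFB1, NDUFB8 and NDUFC2. Both genes downregulated in edgeR were among the 7 spanned by a same-strand gene, and 0 of the 31 others passed that test (9 lower and 1 higher at an unadjusted p under 0.05). Among those 31, NDUFB1 passed with DESeq2 and with no filter on low counts. Unadjusted, 13 were lower and 1 higher, beside 7.49% and 5.94% of all genes. The log2 fold change was below 0 in 33 of 37 (49.7% of all genes), with a median of -0.13. Without control library B, which stood apart in its mitochondrially encoded share, 14 subunit genes were downregulated (beside 1213 lower and 1152 higher of the 14854 genes then tested). Of these, 10 were outside the spanned genes, of which NDUFB1, NDUFB6 and NDUFB9 belong to the distal membrane arm. Without control A or C or Arg library A or C the count was 0, beside 5, 10, 6 and 6 lower over all genes. Without Arg library B it was 1, beside 7.

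Groups that did not overlap were also counted. At 24 h, all 3 Arg libraries lay below all 3 controls for 8 of 37 subunit genes and above them for 2, beside 13.4% and 12.9% of all genes. At 48 h these counts were 14 and 2, beside 8.51% and 8.56%. NDUFA3, NDUFA4, NDUFA9, NDUFB8, NDUFB9 and NDUFB10 lay below the controls without overlap at both times. The share of all genes that did so at both times is not given here, so this list is a description only. Of these, NDUFA9 and NDUFB8 are spanned by a same-strand gene, and NDUFA4 is the cytochrome c oxidase subunit.

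**Figure D2:**
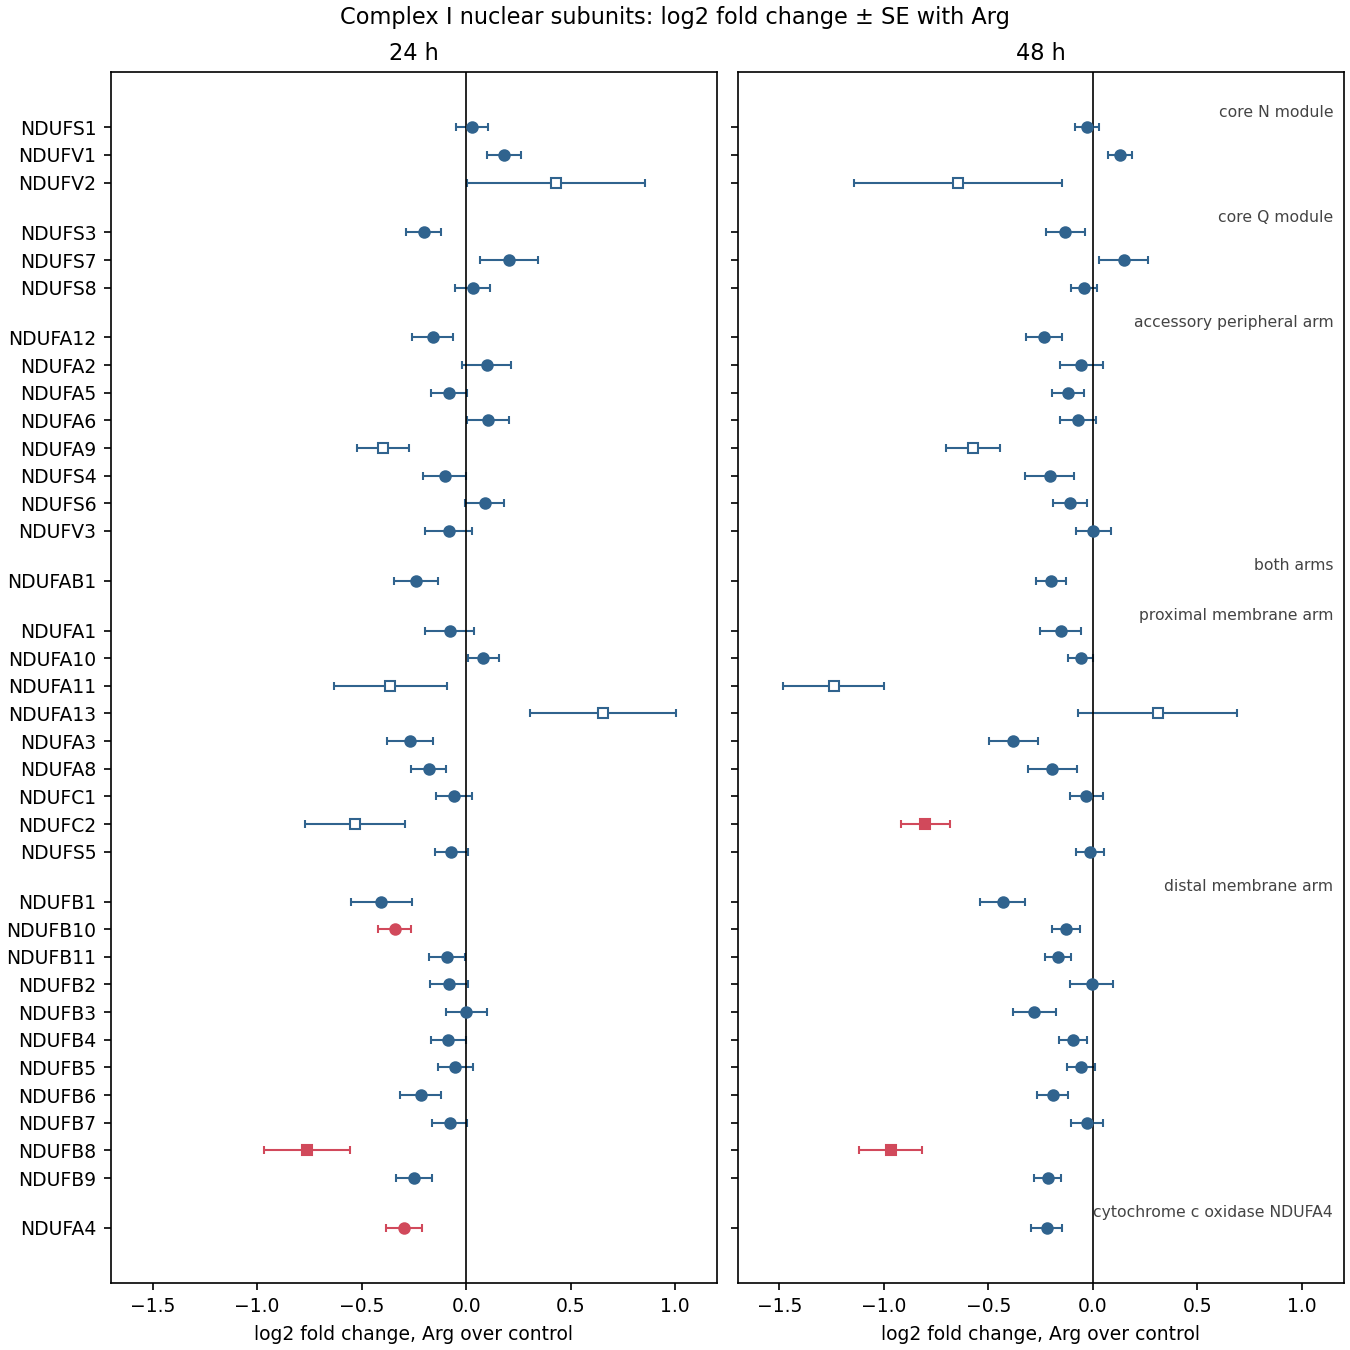
Log2 fold change of Arg over control at 24 h (left) and 48 h (right) for subunit genes tested, by structural group; points are estimates and bars are SE (3 libraries a group). Red marks an adjusted p under 0.05, and squares mark genes spanned by a same-strand gene; all 11 genes of the distal membrane arm lie at or below 0 in both panels.

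The 3 core genes of the N module had log2 fold changes above 0 at 24 h, none of which passed the test. NDUFV1, which carries the flavin and the NADH site, had 203, 190 and 204 CPM in controls and 203, 235 and 238 CPM with Arg at 24 h. At 48 h it had 223, 218 and 221 CPM in controls and 247, 243 and 235 CPM with Arg, so the groups overlapped at 24 h and not at 48 h. The log2 fold changes were 0.18 ± 0.08 (SE, adjusted p = 0.198) and 0.13 ± 0.06 (adjusted p = 0.366), and NDUFV1 was the only subunit gene higher at an unadjusted p under 0.05 at either time. NDUFS1, the largest iron-sulfur subunit, had 134, 144 and 140 CPM in controls and 141, 142 and 145 CPM with Arg at 24 h. Its log2 fold changes were 0.03 ± 0.08 and -0.03 ± 0.06. The values of NDUFV2 rested on at most 1.66 CPM in a library and did not pass the test at either time.

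In the Q module, whose subunits hold the ubiquinone site and the last iron-sulfur clusters, NDUFS3, NDUFS7 and NDUFS8 did not pass the test at either time. NDUFS3, a core subunit without a cluster, had 90.9, 82.6 and 92.1 CPM in controls and 76.1, 77.2 and 77.7 CPM with Arg at 24 h. The groups did not overlap at that time, and the log2 fold change was -0.20 ± 0.08 (adjusted p = 0.155). NDUFS7, which carries the terminal cluster, had 13.9, 14.1 and 11.01 CPM in controls against 15.34, 14.74 and 14.996 CPM with Arg at 24 h (adjusted p = 0.402). Its Arg libraries also lay above the controls at 48 h (adjusted p = 0.623). NDUFS8 had log2 fold changes of 0.03 ± 0.09 and -0.04 ± 0.06 at the 2 times.

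Of the 8 accessory genes of the peripheral arm that were tested, 0 passed the test at 24 or 48 h, 5 lay below 0 at 24 h and 7 at 48 h. NDUFA9, a subunit at the junction of the arms, had 27.8, 25.1 and 32.7 CPM in controls and 24.6, 19.3 and 21.1 CPM with Arg at 24 h. At 48 h the controls had 26.4, 19.4 and 22.0 CPM and the Arg libraries 14.8, 15.4 and 15.5 CPM. The groups were apart at both times, and the log2 fold changes were -0.40 ± 0.13 (adjusted p = 0.0673) and -0.57 ± 0.13 (adjusted p = 0.133) in edgeR. NDUFA9 passed at 48 h with DESeq2, with no filter on low counts and without control library B. It also passed at 48 h with the library letter as a block, with or without a correction for exonic length. NDUFA2, NDUFA6 and NDUFS6 had positive values at 24 h (0.09 to 0.10) and negative ones at 48 h (-0.06 to -0.11), none of which passed the test. NDUFV3 lay at -0.08 and 0.00, NDUFA12 at -0.16 and -0.23. NDUFAB1, the mitochondrial acyl carrier protein, which also serves fatty acid synthesis, had log2 fold changes of -0.24 ± 0.11 (adjusted p = 0.184) and -0.20 ± 0.07 (adjusted p = 0.267).

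In the proximal membrane arm, 7 of 9 genes lay below 0 at 24 h and 8 of 9 at 48 h. Among the 37 genes other than NDUFA7, NDUFC2 was the one whose libraries differed most within a group, with a coefficient of variation of 57.8% with Arg at 24 h. It had 38.2, 37.9 and 45.9 CPM in controls at 24 h, and 46.9, 19.1 and 18.4 CPM with Arg. Arg library A was thus at the level of the controls while B and C were under 20 CPM, which gave a log2 fold change of -0.53 ± 0.24 (adjusted p = 0.192). Without Arg library A it was -1.12 (adjusted p = 0.00011). At 48 h the controls had 36.6, 35.9 and 35.4 CPM and the Arg libraries 20.9, 23.9 and 17.2 CPM. Here all Arg libraries were low, and the log2 fold change was -0.80 ± 0.12 (adjusted p = 0.0206).

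NDUFA11, an accessory subunit, had 6.18, 4.29 and 8.23 CPM in controls and 6.86, 4.43 and 3.28 CPM with Arg at 24 h, which overlapped. At 48 h it had 7.92, 6.17 and 6.11 CPM in controls and 3.70, 2.68 and 2.13 CPM with Arg. The groups were then apart, with a log2 fold change of -1.24 ± 0.24 that missed the threshold in edgeR (adjusted p = 0.0905). NDUFA11 passed at 48 h with DESeq2, with no filter on low counts and without control library B. It also passed with the library letter as a block, with or without a correction for exonic length. NDUFA13, also known as GRIM-19, lay above 0 instead, at 0.65 ± 0.35 and 0.31 ± 0.38 at the successive times (adjusted p = 0.275 and 0.758), from levels of at most 2.50 CPM. NDUFA10 had a log2 fold change of 0.08 at 24 h with the Arg libraries above the controls, and -0.06 at 48 h. NDUFA3 lay at -0.27 and -0.38, with adjusted p of 0.146 and 0.205.

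All 11 genes of the distal membrane arm had negative log2 fold changes at both times, with medians of -0.09 and -0.17. NDUFB10 had 136, 137 and 131 CPM in controls and 101, 108 and 111 CPM with Arg at 24 h. The groups were far apart, and the log2 fold change was -0.34 ± 0.08 (adjusted p = 0.0142). At 48 h the controls had 130.2, 115 and 122 CPM and the Arg libraries had 111, 114 and 111 CPM, with a log2 fold change of -0.13 ± 0.07 (adjusted p = 0.429). No other gene of the table overlaps NDUFB10.

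NDUFB8 had 12.2, 10.3 and 16.45 CPM in controls and 10.003, 6.06 and 6.88 CPM with Arg at 24 h. The nearest libraries of the groups differed by little, and the log2 fold change was -0.76 ± 0.20 (adjusted p = 0.0325). At 48 h the controls had 13.3, 10.997 and 12.8 CPM and the Arg libraries 6.21, 6.01 and 6.74 CPM. The groups were then well apart, with -0.97 ± 0.15 (adjusted p = 0.0315). In the edgeR test as described, NDUFB8, one of the 7 spanned genes, was the only subunit gene that passed at both times. Leaving out 1 library, NDUFB8 passed at 24 h only without control B or without Arg library A. At 48 h it passed only without control B. NDUFC2 also passed at both times with the library letter as a block, NDUFA9 with the block and a correction for exonic length, and NDUFA9, NDUFB1 and NDUFC2 with no filter on low counts.

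NDUFB9 and NDUFB1 had some of the smallest p-values without passing the test. NDUFB9 had 269.7, 233 and 289 CPM in controls and 232, 209.9 and 226 CPM with Arg at 24 h (-0.25 ± 0.09, adjusted p = 0.0955). At 48 h it had 235, 218 and 234 CPM in controls and 201, 205 and 187 CPM with Arg (-0.22 ± 0.06, adjusted p = 0.203). The groups of NDUFB9 did not overlap at either time. NDUFB1 had log2 fold changes of -0.41 ± 0.15 (adjusted p = 0.102) and -0.43 ± 0.11 (adjusted p = 0.157). The changes of NDUFB3 were 0.00 at 24 h and -0.28 at 48 h, and the remaining 6 genes lay between -0.22 and -0.01 over both times.

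NDUFA4, the cytochrome c oxidase subunit, had 157, 148 and 169 CPM in controls and 141, 120.2 and 124 CPM with Arg at 24 h. No Arg library reached the lowest control, and the log2 fold change was -0.30 ± 0.09 (adjusted p = 0.0481). At 48 h it had 159, 141 and 146 CPM in controls and 138, 123 and 121 CPM with Arg, again without overlap (-0.22 ± 0.08, adjusted p = 0.241).

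**Figure D3:**
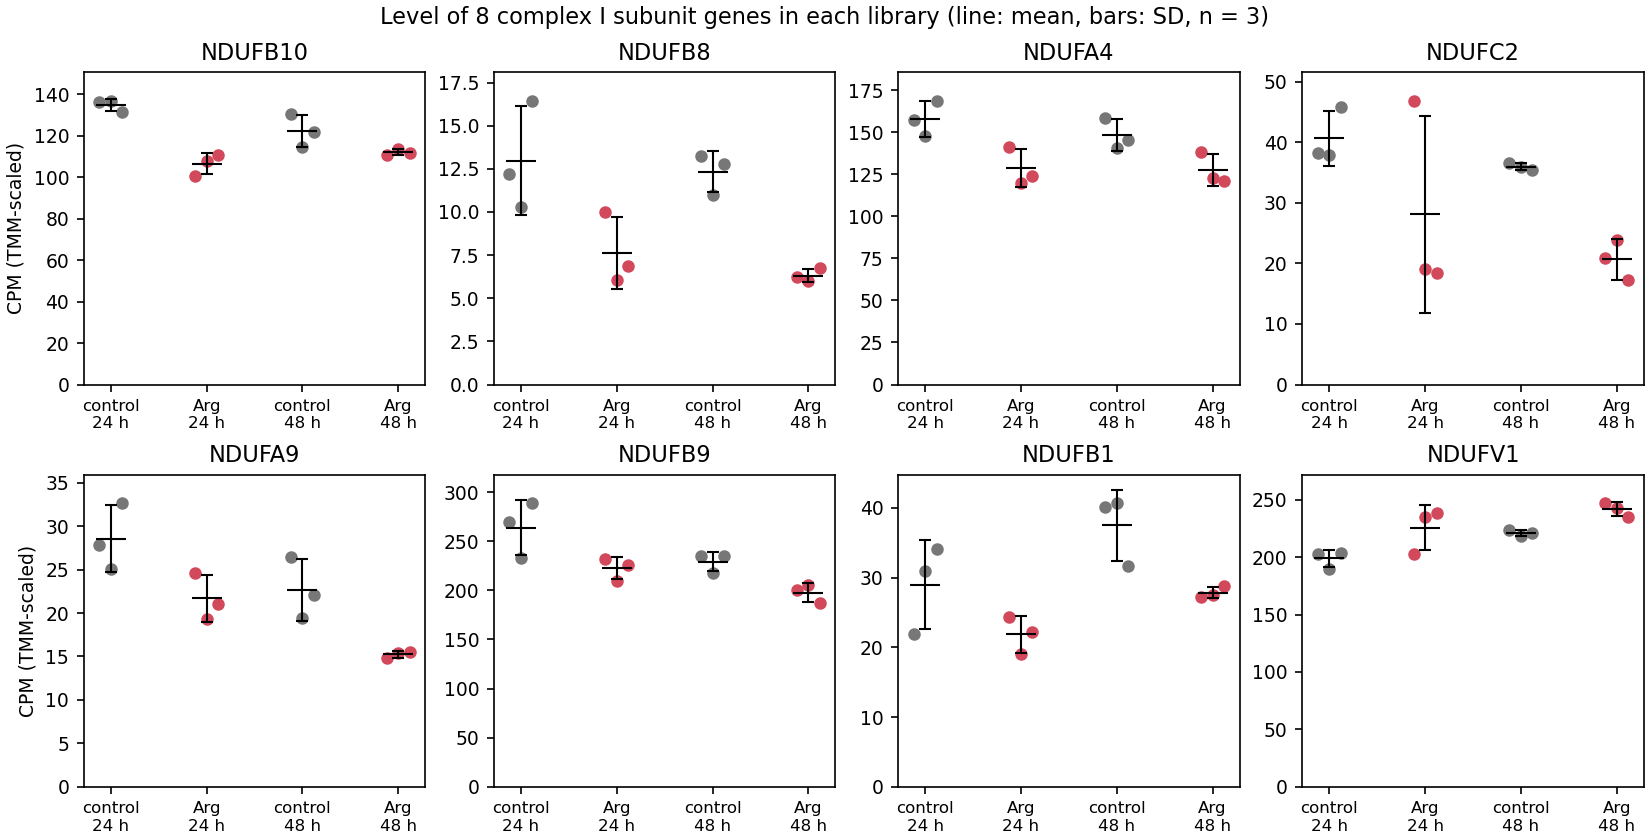
Level of 8 subunit genes in each library, in TMM-scaled CPM from 0 (each panel has its own scale), for control (grey) and Arg (red) at 24 and 48 h; lines are means and bars SD of 3 libraries. NDUFC2 shows Arg library A at 24 h at 46.9 CPM beside 19.1 and 18.4 in B and C, and NDUFV1 has its highest values with Arg at 48 h.

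Levels were also summed over each structural group in each library, as a description without a test. The 11 distal membrane arm genes summed to 1102, 1069 and 1174 CPM in controls at 24 h and to 1001, 933 and 1040.0 CPM with Arg. At 48 h the sums were 1120, 1109 and 1118 CPM in controls and 1036, 1031 and 958 CPM with Arg. The Arg sums were thus 88.9% ± 4.9 and 90.4% ± 3.9 (SD, n = 3) of the mean of the controls at 24 h, around which the controls had an SD of 4.8% at 24 h and 0.5% at 48 h. The 3 core N module genes lay at 109% ± 6.2 with Arg at 24 h, 112% ± 0.6 in controls at 48 h and 117% ± 1.6 with Arg at 48 h, a sum that NDUFV1 and NDUFS1 made up almost wholly. The 9 proximal membrane arm genes summed to 604, 564 and 612 CPM in controls and to 579, 553 and 552 CPM with Arg at 24 h, where the groups overlapped and the Arg sums were 94.5% ± 2.5 of the control mean. At 48 h they summed to 622.5, 604 and 624 CPM in controls and to 579.9, 569.5 and 552 CPM with Arg, or 103.9% ± 1.9 against 95.6% ± 2.3, without overlap. The accessory genes of the peripheral arm lay at 98.4% ± 0.5 with Arg at 24 h, within the controls, and at 107% ± 5.2 in controls against 97.3% ± 2.2 with Arg at 48 h, again without overlap. The means of the core Q module lay between 99.0% and 105%. At 48 h its sums were 339.6, 335.2 and 341.0 CPM in controls and 323.0, 334.4 and 326.6 CPM with Arg, narrowly without overlap. The 51 genes of complexes II to V lay at 90.7% ± 3.2 with Arg at 24 h and 91.9% ± 3.7 at 48 h, against 99.8% ± 3.0 in controls at 48 h. Their groups did not overlap at either time. Lower sums with Arg were thus not particular to the distal membrane arm at 24 or 48 h, and the difference between arms was not tested.

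The 7 subunits encoded by mitochondrial DNA, which form the proton-pumping core of the membrane arm, followed another course. All 7 were downregulated with Arg at 24 h, with a median log2 fold change of -0.53, the largest being MT-ND1 at -0.93; without Arg library B 4 of 7 passed, with all 12 libraries in 1 model 2 and with DESeq2 6. Their summed level was 2676, 2770 and 2711 CPM in controls and 1785, 1467 and 1977 CPM with Arg. At 48 h, 0 of 7 passed the test (edgeR, 0 also at an unadjusted p under 0.05; 0 with DESeq2, 1 higher with the replicate block, 1 lower and 4 higher with no filter) and the median was 0.30, with sums of 2428, 4709 and 1844 CPM in controls and 3251, 3902 and 3460 CPM with Arg. Control library B was the highest of all 12, and without it 6 of 7 were upregulated at 48 h, with a median of 0.77, beside 1152 of 14854 genes upregulated. The mitochondrially encoded RNAs reached these poly(A) libraries in shares that varied between libraries, and the part of this in their values was not tested.

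**Figure D4:**
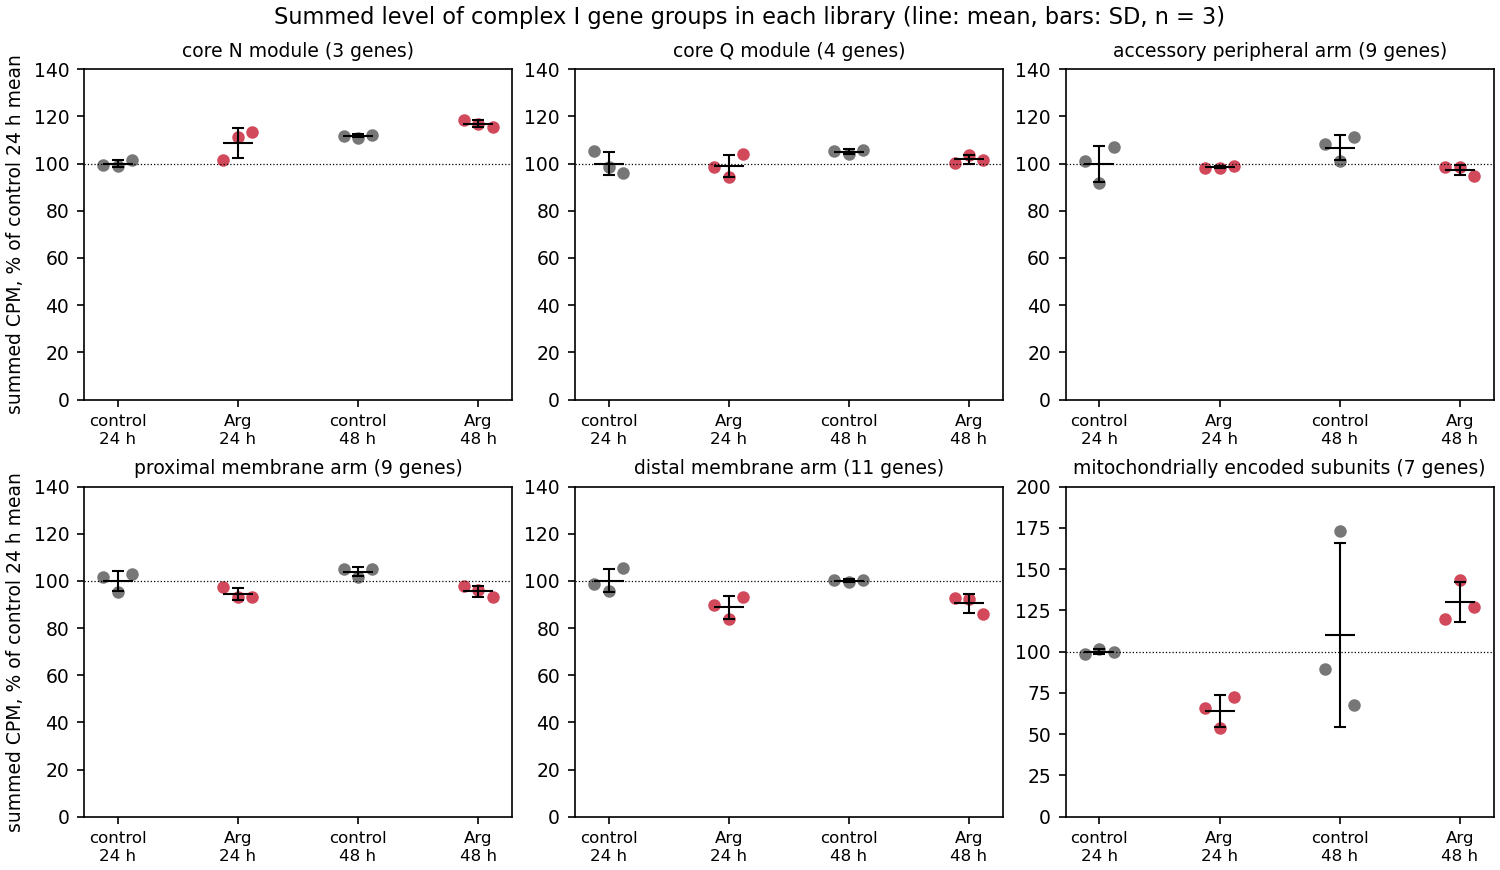
Summed CPM of complex I gene groups in each library, as a percentage of the mean of the 3 controls at 24 h (dotted line at 100%), for control (grey) and Arg (red); lines are means and bars SD of 3 libraries, and the panel of mitochondrially encoded subunits has a wider axis. The distal membrane arm lies at 88.9% and 90.4% with Arg, and the mitochondrially encoded sum at 64.1% with Arg at 24 h and 130% with Arg at 48 h.

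Whether the response to Arg differed between 24 and 48 h was tested as an interaction over all 12 libraries. No subunit gene passed (0 lower and 0 higher of 37; 1 and 1 at an unadjusted p under 0.05, beside 3.8% and 3.06% of all genes), and 0 lower and 2 higher did among all 15148 genes (0.0% and 0.0132%). The smallest p-values belonged to NDUFA11 (-0.88 ± 0.39, adjusted p = 0.708), NDUFB10 (0.21 ± 0.10, adjusted p = 0.712) and NDUFB3 (-0.28 ± 0.14, adjusted p = 0.765). For the mitochondrially encoded subunits the interaction was positive in 7 of 7 with a median of 0.93, of which 0 passed after adjustment and 6 had an unadjusted p under 0.05. Without control library B at 48 h, 6 of the 7 passed, as did 6 with no filter on low counts, beside 28 and 51 higher over all genes.

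The same libraries were then compared between 24 and 48 h, so the comparisons share libraries with those above. In controls, 1 subunit gene was upregulated and 0 were downregulated (7 and 4 at an unadjusted p under 0.05, beside 17.1% and 17.0% of all genes), beside 9.9% and 10% of the 14449 genes tested. It was NDUFS8, a core Q module subunit with iron-sulfur clusters, which had 139.9, 138 and 119 CPM at 24 h and 153, 163 and 157 CPM at 48 h (0.26 ± 0.08, adjusted p = 0.0452). The 48 h values were all higher. NDUFA2 (0.34 ± 0.11, adjusted p = 0.0536) and NDUFS3 (-0.29 ± 0.10, adjusted p = 0.0622) came next.

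With Arg, 2 subunit genes were lower and 1 was higher at 48 h than at 24 h, beside 14% and 14.3% of the 14398 genes tested (4 and 3 at an unadjusted p under 0.05, beside 19.2% and 19.3%). NDUFA9 fell from 24.6, 19.3 and 21.1 CPM to 14.8, 15.4 and 15.5 CPM (-0.51 ± 0.12, adjusted p = 0.0032). NDUFS3 fell from 76.1, 77.2 and 77.7 CPM to 65.3, 66.9 and 65.5 CPM (-0.22 ± 0.07, adjusted p = 0.0283). NDUFB1 rose from 24.3, 19.1 and 22.1 CPM to 27.2, 27.6 and 28.7 CPM (0.35 ± 0.11, adjusted p = 0.0187). In each of the 3 genes the libraries of the times did not overlap. Leaving out any 1 of the 6 libraries left NDUFA9 downregulated, while NDUFB1 passed in 4 of 6 such fits and NDUFS3 in 1 of 6.

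Other genes of the pathway are given beside these. Of 21 assembly factors, which help build complex I without remaining in it, 2 were downregulated and 0 upregulated with Arg at 24 h, beside 3.84% and 2.79% of all genes. The 2 were DMAC2 (-0.31, adjusted p = 0.037) and ECSIT (-0.27, adjusted p = 0.041). Without control A or C or Arg library B or C at 24 h 0 of the 21 passed, and without Arg library A 4. With all 12 libraries in 1 model 0 passed, with the exonic length correction 1 and with no filter 4. At 48 h 0 of 21 passed in edgeR, beside 0.117% lower and 0.0% higher over all genes. At an unadjusted p under 0.05, 5 were lower and 0 higher, beside 7.49% and 5.94% of all genes. Between 24 and 48 h with Arg, 9 of 21 assembly factors were lower and 0 higher (4 lower without Arg library B at 48 h, 5 without C), beside 14% and 14.3% of all genes. Among the 37 subunit genes these counts were 2 and 1, and the difference between the lists was not tested. In controls, 5 of 21 assembly factors were lower and 1 higher at 48 h than at 24 h, beside 10% and 9.9% of all genes. The lower count in controls was 8 with the replicate block and 8 in 1 model, beside 2075 and 1877 lower over all genes. It was 0 without control A or C at 24 h. In the interaction 0 of 21 passed, beside 0.0% lower and 0.0132% higher over all genes. Of 44 tested subunits of complexes II to V, 3 were downregulated and 0 upregulated at 24 h, beside 3.84% and 2.79% of all genes. The log2 fold change lay below 0 in 37 of 44 (49.5% of all genes), with a median of -0.14. Without control B 12 of the 44 were downregulated, without Arg library A 6, and without control C or Arg library B or C 2. Downregulated counts at 24 h were 5 with DESeq2, the block or the length correction and 6 with no filter. At 48 h 0 of 44 passed in edgeR, with 21 lower and 1 higher at an unadjusted p under 0.05 (7.49% and 5.94% of all genes). Lower counts were 6 with DESeq2, 6 with the replicate block, 4 with block and length correction and 10 with no filter. Over all genes these settings called 128, 141, 99 and 374 lower. In the main edgeR fit 38 of 44 lay below 0 (49.7% of all genes), and the median was again -0.14. Without control B at 48 h 19 complex II to V genes and 6 assembly factors were downregulated, beside 1213 of 14854 genes. Of the transcription factors and coactivators examined, such as NRF1, GABPA and YY1, 0 of 8 tested at 24 h and 0 of 9 at 48 h passed. At an unadjusted p under 0.05, 1 was lower and 1 higher at each time. The shares of all genes were 11.9% and 10.8% at 24 h and 7.49% and 5.94% at 48 h.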

How the data were processed

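Reads from poly(A) libraries (150 bp paired-end) were trimmed with fastp, aligned to GRCh38/hg38 with STAR and counted per gene with featureCounts by the authors. The deposited values are raw counts per gene, not normalized. Tool versions, annotation release, strand setting and the treatment of reads shared by 2 genes are not given in the sources used here. Counts were tested with edgeR 4.0.16 (R 4.3.3): TMM scaling, filterByExpr, quasi-likelihood test within each pair of groups, and all 12 libraries for the interaction, with Benjamini-Hochberg adjustment over all genes tested and a threshold of 0.05. SE is the log2 fold change divided by the square root of F. DESeq2 1.42.0 was an alternative. Exons came from GENCODE v44. The subunit genes and lists were chosen with earlier results of these data known. Genes named in full were the core genes, the 6 with the smallest p in each direction per Arg comparison, the 3 smallest in the interaction and in each time comparison, the 3 highest and 3 lowest per kilobase, NDUFA4, and those with uncertain counts; NDUFA3, NDUFA12 and NDUFAB1 were added after their values were seen. Whether libraries of the same letter were paired is not given in the sources used here, and the main fit had no block. Their deviations from the group means correlated at -0.061 to 0.135, which does not decide it. No 2 libraries of a group agreed within sampling noise (chi-square per degree of freedom 3.66 to 23.9). The fits were tested on simulated data. One gene that this rule names is not reported here.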

Additional observations from a re-analysis of the deposited data

Results flagged for a closer look

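The processed pseudogene NDUFV2P1 (chromosome 19, 53223973 to 53224879) was in none of the gene lists examined here. It held 976 counts over the 12 libraries, between 52 and 106 in each, above the limit of 3 that a count of 0 allows. NDUFV2 itself held 209 counts. With 3 libraries a group, no test for single libraries that stand apart was made.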

How the results depend on the processing

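The limits are these: 3 libraries a group, with no statement on separate flasks or days, 7 genes that share bases with a same-strand gene, and unstated counting settings. At 24 h the count of downregulated subunit genes was 3, against 2 without the spanned genes and 6 with no filter on low counts. Leaving out 1 library gave 0 to 6: 0 without Arg library B or C, 5 without control B and 6 without Arg A. It gave 1 without control A, NDUFB1, which was not among the 3, and 1 without control C, NDUFB10. In each of these fits the count over all genes, given above, fell or rose in the same direction. With no library left out, NDUFB10, NDUFB8 and NDUFA4 also passed with DESeq2, other scalings, a stricter filter and all 12 libraries in 1 model. The replicate block called 4, with NDUFC2 added, and block and length correction called 3, with NDUFA9 in place of NDUFA4. At 48 h the count was 2, against 5 with DESeq2, 5 with no filter, 1 with all 12 libraries in 1 model, 4 with the replicate block, 4 with the block and a correction for exonic length, and 0 without the spanned genes. Over all genes 17 were lower, against 128 with DESeq2, 374 with no filter, 37 in 1 model, 141 with the block and 99 with block and length correction. Leaving out 1 library gave 0 to 14 subunit genes, the 14 without control library B. Without control A or C or Arg A or C the count was 0, and without Arg B 1. In the control time comparison 0 were lower, against 1 with DESeq2, no filter or 1 model, 3 with the replicate block and 2 with block and length correction (0 to 2 leaving out 1 library, 2 without control B at 24 h), and 1 was higher, against 6 by library size only, 3 with no filter, 2 with at least 10 counts in every library, 2 in 1 model, 4 with the block, 3 with the length correction and 6 with both (0 to 1 leaving out 1 library, 1 only without control B at 24 h). Its median of 0.08 became 0.14 by library size only, beside 0.01 and 0.07 over all genes. Lower calls over all genes were 1451, against 1607 with DESeq2, 1735 with no filter and 1877 in 1 model. They were 2075 with the block and 2156 with block and length correction. Higher calls over all genes were 1431, against 1845 by library size only, 1600 with no filter and 1439 with at least 10 counts in every library. In 1 model they were 1825, with the block 1969, with the length correction 1321 and with both 1719. With Arg over time, 2 were lower, against 1 by library size, in 1 model or with the length correction (1 to 3 leaving out 1 library), and 1 was higher, against 3 by library size, 0 in 1 model, 6 with the length correction and 3 with correction and block (0 to 2 leaving out 1 library; 0 without Arg B at 24 h or Arg C at 48 h). Its median of 0.00 became 0.058 by library size, and lay between -0.012 and 0.058 leaving out 1 library (0.058 without Arg C at 24 h). Over all genes the median went from 0.00 to 0.058 by library size and was 0.00 without Arg C at 24 h. Lower calls over all genes were 2012, against 1453 by library size, 1749 in 1 model and 1955 with the length correction. Higher calls over all genes were 2060, against 2568, 1716 and 1811 in these settings, and 1656 with correction and block. The medians with Arg lay between -0.12 and -0.05 at 24 h and between -0.16 and -0.09 at 48 h leaving out 1 library. The causes were not tested. Not every pair of libraries with the same letter correlated above 0.1, which does not decide whether they were paired.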
